A study of Gallus gallus with 3 samples.

Results

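The array carried 542 chicken microRNAs (miRNAs), and 184 of them are described here. They are the mature miRNAs with a chicken name numbered 1451 to 1816, with no star in the name, whose target sequence is at least 50% guanine plus cytosine (GC). miR-1623 and miR-1669 fall in this range and were left out. Of the 184, 177 are named by the number alone and 7 carry an arm or a letter after it. All names are written without the species prefix gga-. The members ran between 20 and 25 bases in length and between 50% and 90.0% in GC, with a median GC of 59.1%. The values beside them are those of 98 miRNAs of the same number range under 50% GC, 181 other unstarred miRNAs with lower or higher numbers, and 77 starred ones.

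The RNA came from leg muscle of 14-day-old chicken embryos of 2 recessive White Rock strains. The first is a dwarf strain in which GHR, the gene of the growth hormone receptor, carries a deletion at its 3′ end, and the second is a normal strain without it. Both are meat-type birds, the embryos were female per the study's methods, and skin and bone had been removed. Each of 3 two-colour arrays compared 1 dwarf pool with 1 normal pool, and each pool held RNA of 3 embryos. The dwarf pool was labelled with Cy5 on arrays 1 and 3 and with Cy3 on array 2, and the normal pool carried the other dye. The array is the replicate (n = 3), and every comparison is limited in precision by that number. Because the pools are bulk tissue, fewer cells of a type and less RNA per cell cannot be told apart.

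A miRNA is a short single-stranded RNA cut out of a hairpin precursor. It guides a silencing complex to messenger RNAs that pair with its seed, and the usual outcome is less protein from the target. Muscle has a well known set of such RNAs, among them the miR-1 and miR-133 families. The chicken miRNAs with high numbers were for the most part entered in miRBase from small RNA sequencing, and no function of the members is given in the sources used here.

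Signal is the mean intensity of the 6 spots of a miRNA minus the median empty spot of the same channel, in arbitrary units. A signal over 32, the limit the study used for detection, counts as detected. Median empty spots lay at 57.8, 105.2 and 51.9 for the dwarf pools (arrays 1 to 3) and at 133.7, 36.1 and 170.2 for the normal pools. The SD of single empty spots was 9.57, 26.3 and 9.07 for the dwarf pools and 28.1, 25.0 and 25.0 for the normal pools. In every pool the highest empty spot was more than 32 above the median. A signal just over the limit can therefore lie within the range of single empty spots. Of 7 skeletal muscle miRNAs of a marker list that are on the array, 6 were over 32 in all 6 pools and miR-1b was in none. Their summed signal ran between 14209 and 46692 in dwarf pools and between 30235 and 69836 in normal pools. The liver miRNA miR-122 lay between 39.0 and 200.0 in dwarf pools and between 58.0 and 220.0 in normal pools, and the cartilage miRNA miR-140 was at or below 32 in every pool.

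The sequences of the 16 members detected in at least 5 of the 6 pools are given first, because base composition is set beside the signal further on. They are the RNA targets of the probes, 5′ to 3′, in order of mean signal, and the capitals mark the seed, bases 2 to 8.
miR-1777: gUGGGCGGugcggggcggcg
miR-1576: cUCGGGCGggcggagcggcac
miR-1607: aGGGGCGGgaggggucgggc
miR-1584: cCGGGUGGggcugggcuggg
miR-1629: uGCUGUCGguggguuuguucu
miR-1770: cUGCGGGGgaggagggaggggg
miR-1579: cGUGGCGGgaagggaugggcg
miR-1451: uCGCACAGgagcaaguuaccgc
miR-1759: uAGGGUAGgaggagagaggugu
miR-1587: gGGCUGGGcugggcugggca
miR-1763: gAGGGCGGgagcggagcgcggga
miR-1456: gAAAGGACggaggcggcccgcgc
miR-1713: cUCGGAGAgggaagaacgcggug
miR-1552-5p: uUAGUGCGcgguaagcuagggug
miR-1790: cGGGUGAGggcgguggggga
miR-1595: aAGCACGAgugugguggagcuc

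Each of these 16 seeds occurs on 1 probe of the 542. Among all members, 172 had a seed of their own and 12 shared 6 seeds with another member, and none of those 12 is among the 16. Guanine made up 70% of miR-1777, miR-1607 and miR-1790 and 72.7% of miR-1770. miR-1451 was the exception at 27.3% guanine and 31.8% cytosine. miR-1759 held no cytosine at all, and its GC of 54.5% is guanine alone.

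Most members gave no signal above the limit. Over 32 were 16, 18 and 17 members in dwarf pools 1 to 3, or 8.70%, 9.78% and 9.24% of the 184. In the normal pools 22, 15 and 22 members were over 32, or 12%, 8.15% and 12%. The same limit was passed by 18.6%, 22.9% and 21.6% of all 542 miRNAs in the dwarf pools and by 23.1%, 16.6% and 26.2% in the normal pools, so the members stood below the background of the array in every pool.

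The difference between the strains in this count did not exceed the spread between arrays. The mean was 17.0 ± 1.0 members in dwarf pools and 19.67 ± 4.04 in normal pools (SD, n = 3 each). Within arrays 1, 2 and 3 the dwarf count minus the normal count was -6, 3 and -5, with a mean of -2.67 (exact sign-flip test, two-sided, p = 0.5, where the smallest p that 3 arrays allow is 0.25). The dwarf pool had the smaller count on arrays 1 and 3 and the larger count on array 2, where the dyes were swapped. Counted by dye, the Cy5 pools had 16 ± 1.0 members over 32 and the Cy3 pools 20.67 ± 2.31 (SD, n = 3 each). The direction of the mean difference turned with the detection rule, to 2.33 at a limit of 16 and to 2.67 on signals after loess and Aquantile.

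Over the 6 pools, 26 members were over 32 in at least 1 pool, which is 14.1% of the members against 27.5% of all 542 miRNAs. Of these, 14 were over it in all 6 pools, 2 in 5 pools, 1 in 3 pools, 4 in 2 pools and 5 in 1 pool. Those in all 6 pools were 7.61% of the members, against 15.7% of all miRNAs. The other 158 members were over 32 in no pool. No member was over the limit in every pool of one strain and in none of the other, and this was not counted for all 542 miRNAs. The limit was applied to signals before normalization. For a member over it only in Cy3 pools, the dye swap on array 2 fixed this outcome in advance. The count therefore does not compare the strains.

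**Figure D1:**
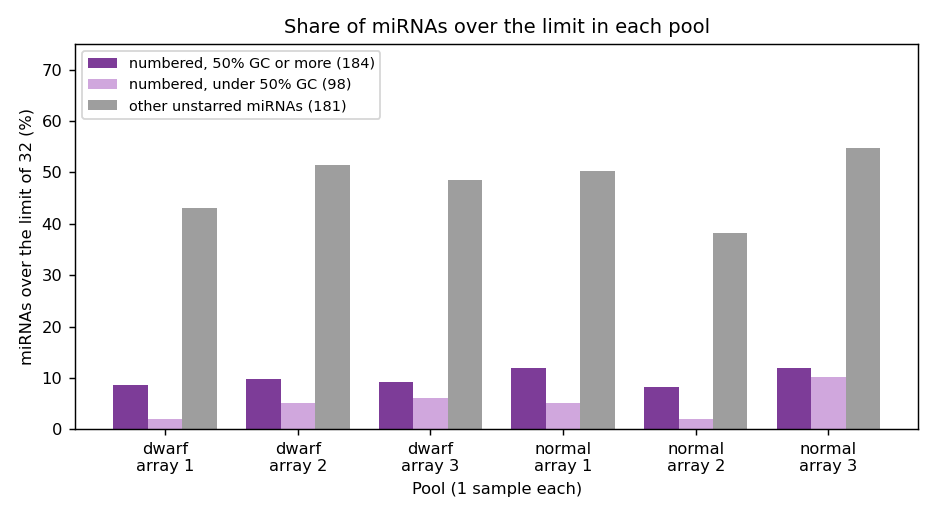
Share of miRNAs with a signal over 32 (y axis, percent) in each of the 6 pools (x axis, dwarf pools left of normal pools, 1 pool per group of bars) for the 184 numbered miRNAs at 50% GC or more, the 98 numbered miRNAs under 50% GC and the 181 other unstarred miRNAs. The first set lies between 8.15% and 12% in all pools, above the second set and far below the third in each.

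The most similar set, the 98 numbered miRNAs under 50% GC, had lower shares over the limit in every pool. Of these, 2, 5 and 6 were over 32 in the dwarf pools and 5, 2 and 10 in the normal pools, and 2 were over it in all 6 pools. The share of members over 32 minus that of this set, averaged over the pools of an array, was 6.76, 5.40 and 2.44 percentage points on arrays 1, 2 and 3. The mean was 4.86 points (SD 2.21, n = 3), above 0 on 3 of 3 arrays (exact sign-flip test, two-sided, p = 0.25, the smallest that this number allows). The same probes are read on every array. Here and in the comparisons that follow, the SD and p therefore describe arrays and not the choice of miRNAs. Over 32 in at least 1 pool were 10 of the 98, 10.2%, against 14.1% of the members. Among the 157 members under 70% GC it was 8.9%, so the higher share was not a trait of all members.

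Against the other unstarred miRNAs the members had far fewer detected. Of those 181, 101 were over 32 in at least 1 pool and 66 in all 6. The share of members minus this share was -36.4, -35.8 and -41.1 points by array. It averaged -37.7 points (SD 2.89, n = 3, exact sign-flip p = 0.25). Restricting the other set to its 59 miRNAs at 50% GC or more left a mean difference of -34.1 points (SD 2.48, n = 3, exact sign-flip p = 0.25). The members' own GC limit marked no step in signal. At exactly 50% GC, 1 of 15 members was over 32 in any pool, miR-1571 in 1 pool, and their median signal was -7.9. At 47.6% to 48.0% GC, just outside, 2 of 17 were, miR-1702 in 1 pool and miR-1664 in 4 pools, and the median was -10.7.

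A few members were among the brightest probes of the array. By mean signal 2 members ranked in the first 20 of all 542 and 6 in the first 50. Members are 184 of the 542, so their share was smaller among the brightest probes than over the array. The ranks describe the probes, since signals of different probes are not levels that can be compared. The 14 members detected in every pool spanned 72.4-fold in mean signal, and the 4 brightest held 73.8% of their summed signal.

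miR-1777 was the brightest member and ranked 8 of 542. Its signal was 10629.7, 14629 and 13039.9 in dwarf pools 1 to 3 and 17317, 7979 and 15049.9 in normal pools 1 to 3. miR-1576, ranked 12, had 6800.0, 9372 and 8364 in dwarf pools and 10733, 3838 and 10858 in normal pools. In both, the normal pools of arrays 1 and 3 were the highest of the 6 and the normal pool of array 2 the lowest, so the dwarf values lay inside the range of the normal ones. These signals are not normalised, and the normal pool carried Cy3 on arrays 1 and 3 and Cy5 on array 2.

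The same order held for the next pair. miR-1607 had signals of 2560.2, 3757 and 4172 in dwarf pools and 5232, 1234 and 6733 in normal pools. miR-1584 had 1493, 2443 and 1886 in dwarf pools and 4157, 743 and 5333 in normal pools. For each of them, as for all 14 members detected in every pool, the 3 dwarf pools lay within a narrower band than the 3 normal pools. These signals too are not normalised, and the normal pool carried Cy3 on arrays 1 and 3 and Cy5 on array 2. The source of the wider band was not tested.

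miR-1629 and miR-1451 departed from the guanine-rich pattern of the first 4. miR-1629 had 352, 1646 and 1692 in dwarf pools and 1883, 999.9 and 6570.5 in normal pools. miR-1451 had 633, 1842 and 847 in dwarf pools and 1434, 943 and 3061 in normal pools. The dwarf pool of array 1 was the lowest of the 6 for both, and the normal pool of array 3 the highest.

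miR-1770 and miR-1579 fell in the same range of mean signal. miR-1770 had 908, 1179 and 1493 in dwarf pools and 2726, 477 and 3296 in normal pools. miR-1579 had 337, 1113 and 965 in dwarf pools and 2284, 763 and 3441 in normal pools. The normal pool of array 2 was the lowest of all for miR-1770, whereas for miR-1579 the lowest was the dwarf pool of array 1.

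miR-1759, miR-1587 and miR-1763 averaged between 645 and 971 over the 6 pools. miR-1759 had 301, 199.7 and 586 in dwarf pools and 1977, 286.5 and 2474.5 in normal pools. miR-1587 had 344.5, 412 and 399 in dwarf pools and 1145, 100.2 and 1615.5 in normal pools. miR-1763 had 449, 427 and 642 in dwarf pools and 763, 96.0 and 1493 in normal pools. miR-1759 stood out among the 3 in that its dwarf pool was below its normal pool on array 2 as well.

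The last 3 of the 14 were miR-1456, miR-1713 and miR-1552-5p. miR-1456 had 223.5, 338 and 281 in dwarf pools and 615, 135 and 823 in normal pools. miR-1713 had 80.7, 54.6 and 269 in dwarf pools and 307.5, 98.9 and 735 in normal pools. miR-1552-5p had 74.3, 244 and 119 in dwarf pools and 122.5, 83.0 and 444 in normal pools. miR-1552-5p comes from the 5′ arm of its hairpin, and the probe for the 3′ arm, miR-1552-3p, was over 32 in no pool, with a mean signal of -5.1.

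For all 14 the ranges of the dwarf and the normal pools overlapped, on signals before normalization. For a member brighter in Cy3 on every array, the dye swap on array 2 fixed this overlap in advance. The overlap therefore does not compare the strains. The brightest pool exceeded the dimmest by 2.17-fold for miR-1777, the least of the 14, and by 18.7-fold for miR-1629, the most. The coefficient of variation between the 6 spots of a pool, as the median over pools, lay between 9.03% for miR-1451 and 16.6% for miR-1713. The Cy3 pool was the brighter one of the array in 40 of 42 pairs of a member and an array, and the exceptions were miR-1759 and miR-1713 on array 2. Brighter Cy3 was not particular to the members. In the tested miRNAs outside the members, the median log2 of Cy5 over Cy3 before normalization was -0.94, -0.86 and -1.51 on arrays 1 to 3. The strain ratios further on were therefore taken after normalization within each array.

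**Figure D2:**
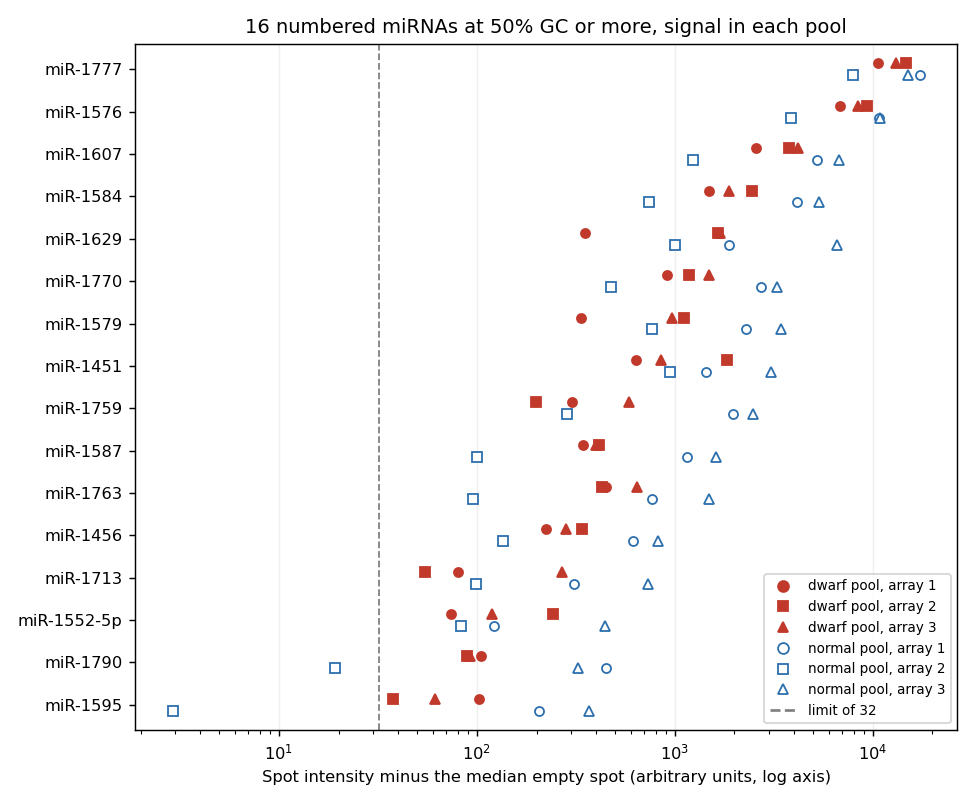
Signal of the 16 members detected in at least 5 of 6 pools (y axis, one row each, in order of mean signal) on a log axis of spot intensity minus the median empty spot (x axis, arbitrary units), with filled symbols for dwarf pools, open symbols for normal pools and one symbol shape per array. The open squares, the normal pool of array 2, lie at the left of most rows, and the dashed line is the limit of 32.

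Below these, the members detected in part of the pools were dim. miR-1790 had 105, 88.6 and 92.2 in dwarf pools and 448, 19.2 and 323 in normal pools. miR-1595 had 102, 37.6 and 61.6 in dwarf pools and 205, 2.9 and 370.1 in normal pools. Both missed the limit only in the normal pool of array 2.

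Of the next members, miR-1583 was over 32 in the dwarf pool of array 2 at 37.1 and in the normal pools of arrays 1 and 3 at 109 and 93.4. miR-1610, miR-1767 and miR-1654 were over it in the normal pools of arrays 1 and 3 alone, at 39.6 to 100.8, while their dwarf pools lay between 8.7 and 31.2. miR-1636 and miR-1779 passed in the normal pool of array 1, at 61.6 and 36.9, and miR-1571 and miR-1624 in the normal pool of array 3, at 48.0 and 41.6. Every pool in which these members passed carried Cy3. In the normal pools of arrays 1 and 3 the SD of single empty spots was 28.1 and 25.0, so the lowest of these signals lie close to that spread. miR-1602, the brightest member over 32 in no pool, reached 31.1 in the dwarf pool of array 2.

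For miR-1564 the call rested on 1 spot, and for miR-1612 the signal lay close to the limit. miR-1564 was over the limit on array 2 alone, at 57.6 in the dwarf pool and 57.9 in the normal pool. Of its 6 spots there, 1 read 432 in the dwarf channel and 387 in the normal channel, while the other 5 read 97.4 to 116.5 and 34.3 to 36.6 before subtraction. By the median of the spots its signal was 7.5 in the dwarf pool and -0.5 in the normal pool, under the limit in both. miR-1612 had 32.6 in the dwarf pool of array 3, and 30.9 by the median.

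The 158 members over 32 in no pool lay close to the median empty spot, shifted above or below it by pool. In dwarf pool 2 all of them were above it, with a lowest value of 1.55. Their median signal was -7.51, 7.30 and -3.32 in dwarf pools 1 to 3, and -16.1, 0.78 and -13.3 in the normal pools. The highest single value was 31.1. A signal near or below 0 says that the miRNA was not detectable on these arrays, not that it is absent.

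Detection was concentrated at the highest GC. Between 50% and 70% GC, 14 of 157 members were over 32 in at least 1 pool and 5 in all 6. Between 70% and 75% GC it was 1 of 10, and none in all pools. At 75% to 80% GC 3 of 6 members were over 32 in at least 1 pool, and at 80% or more 8 of 11 were, 7 of them in all 6 pools. The bins from 70% GC upward hold under 20 members each.

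Signal followed the guanine share of the members more closely than the cytosine share. Across the 184 members the mean signal had a Spearman rho of 0.52 with GC, 0.363 with the guanine share, 0.042 with the cytosine share and -0.333 with the uracil share. These describe probes that share arrays and base composition. Pearson r on log2 of the signal, with values under 1 set to 1, was 0.513 for GC, 0.515 for guanine and -0.122 for cytosine. Within the 158 members under the limit in every pool, rho with GC was 0.514, on signals that lie around the empty spots. In these 158, guanine and cytosine were alike, with rho of 0.199 and 0.209.

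By guanine share, 2 of 38 members under 30% were over 32 in at least 1 pool, 4 of 70 at 30% to 40%, 6 of 50 at 40% to 50%, 6 of 17 at 50% to 60% and 8 of 9 at 60% or more. Of the 9 in the last bin 7 were over it in all 6 pools, and the bins of 17 and 9 are small.

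The 17 members at 75% GC or more split by which of the bases made up the GC. In 5 of them guanine exceeded cytosine by under 10 percentage points or was the rarer base, and none of the 5 passed the limit in any pool. Of the 12 in which guanine led by 10 points or more, 11 were over 32 in at least 1 pool and 9 in all 6. The 5 with little or no lead of guanine, and miR-1581, the single exception among the 12, are shown here with every G in capitals for comparison with the bright sequences above.
miR-1640: uuGucacuGcaGGGccccGcGGcc
miR-1648: cGGcucGGcucGGcuccGcuc
miR-1621: accGGcuGccucGGuGGcac
miR-1557: cccGucGGcuGaGcGGcuGc
miR-1765: cGGaGcGcGGcccuGcGcuG
miR-1581: cGaGccGaaGGGGuGGGcGcuGc

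Their highest signal in any pool was 8.9 for miR-1640, 14.9 for miR-1648, 7.5 for miR-1621, 10.9 for miR-1557, 6.7 for miR-1765 and 23.0 for miR-1581. miR-1765, at 85% GC, has the same GC as miR-1607 and miR-1584, whose mean signals were 3948 and 2676, against 1.3 for miR-1765. The split at 10 points was chosen after the values had been seen. Whether the signal of the guanine-rich sequences comes from these miRNAs or from other RNA bound by the same probes was not tested.

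**Figure D3:**
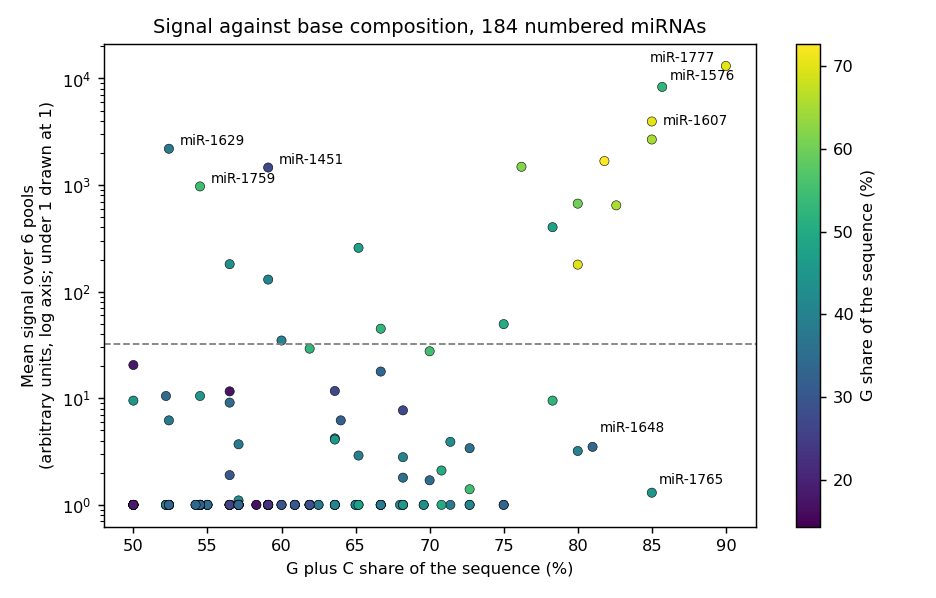
Mean signal over the 6 pools (y axis, arbitrary units, log axis, values under 1 drawn at 1) against the GC share of the sequence (x axis, percent) for the 184 members, coloured by the guanine share. At 75% GC or more the members above the dashed limit of 32 hold between 47.8% guanine (miR-1456) and 72.7% (miR-1770). miR-1581, at 52.2%, lies below the limit, and miR-1648 and miR-1765 stay near the bottom.

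The short stretches counted here were picked with the signals known, and they are not independent of the guanine share. The letters GGGCGG, read on the RNA strand only, occurred in 6 members, or 3.26% of the 184, and in 7 of all 542 probes, or 1.29%. Of the 6, miR-1777, miR-1576, miR-1607 and miR-1763 were over 32 in all pools, miR-1790 in 5 pools and miR-1716 in none, with a mean signal of -3.4. The shorter GGCGG, which every GGGCGG contains, occurred in 12 members and in 2.40% of all probes. Of the 12, 8 were over the limit in at least 1 pool, against 26 of all 184 members, 14.1%. The match is a description of the letters and not of a binding site.

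miR-1716 shares 10 bases with miR-1777, the brightest member. In the lines below the capitals mark the longest shared stretch of each pair.
miR-1777: gugggcgguGCGGGGCGGCg
miR-1716: aGCGGGGCGGCugugagcugagcu
miR-1629: UGCUGUCGGUGGGuuuguucu
miR-181b: aacauucauUGCUGUCGGUGGG
miR-1584: ccgggugGGGCUGGGCUGGG
miR-1587: GGGCUGGGCUGGGcugggca
miR-1770: cugcGGGGGAGGAGGGAggggg
miR-1773*: uGGGGGAGGAGGGAccucugcuu

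The first 13 bases of miR-1629 are the last 13 of miR-181b, a miRNA outside the number range, while the rest of the sequence and the seed differ. miR-181b had 2633, 6219 and 6220.2 in dwarf pools and 8464, 5467 and 13931 in normal pools. The mean over the 6 pools was 2191 for miR-1629, against 7156 for miR-181b. Both were lowest in the dwarf pool of array 1 and highest in the normal pool of array 3, as were miR-1451 and miR-1579. Whether RNA of miR-181b binds the probe of miR-1629 was not tested.

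Of 12 pairs of a detected member and another miRNA that share at least 10 bases, the other miRNA was over 32 in all pools in 5, in 1 pool in 1 and in no pool in 6. miR-1770 and miR-1773* share 13 bases, and miR-1770 averaged 1679.8, against -2.2 for miR-1773*. miR-1584 and miR-1587 also share 13 bases, and both were detected in all pools, with means of 2676 and 669. Detected partners were also miR-762, with 11 bases of miR-1770 and a mean of 157, and miR-2127, with 10 bases of it and a mean of 1085. miR-1629 shares 10 bases with miR-181a, which averaged 3735. In contrast, miR-1451 shares 11 bases with miR-1744, which averaged -8.8, and miR-1579 shares 10 with miR-1672, which averaged -5.3.

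For 32 members the opposite strand of the hairpin, named with a star, was also on the array. The member alone was over 32 in at least 1 pool in 4 pairs (miR-1451, miR-1456, miR-1595 and miR-1564). The star strand alone was over it in 4 other pairs (miR-1560*, miR-1621*, miR-1648* and miR-1668*). In no pair were both over the limit, and in 24 pairs neither was.

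In the RefSeq gene table of assembly GRCg7b 166 of the 184 members matched an entry, and 131 of these lie inside a coding gene, with the strand not considered. Of the 14 members detected in every pool all matched, and 10 lie inside a coding gene. The hosts are GZMM for miR-1777, a granzyme gene, and PPP2R2B for miR-1576, a regulatory subunit of protein phosphatase 2A. They are ARPP21 for miR-1607, FAM35A for miR-1579, RNGTT for miR-1451 (the messenger RNA capping enzyme), PHACTR1 for miR-1759 (a regulator of actin and phosphatase 1) and AUTS2 for miR-1587. LYRM7 holds miR-1456, HOXD3 holds miR-1713 (a homeobox gene) and MAP4K4 holds miR-1552-5p (a kinase). miR-1584, miR-1629, miR-1770 and miR-1763 lie between genes.

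The strain ratio asked whether any of these miRNAs differed between dwarf and normal embryos. It was fitted for the 127 miRNAs whose mean signal over the 6 pools exceeded 32, of which 19 are members, 10.3% of the members against 23.4% of all miRNAs. Ratios are log2 of dwarf over normal after loess within each array, so a value above 0 means a higher signal in dwarf pools, and each is relative to the other miRNAs of its array.

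No member differed between the strains at an adjusted p of 0.05 in limma, with Benjamini-Hochberg adjustment over all 127, and neither did any other tested miRNA, 0%. At an unadjusted p under 0.05 limma called 3 of the 19 members, 15.8%, against 14 of all 127, 11%. Of these, 1 was higher in dwarf pools, 5.26% against 5.51% of all tested, and 2 were lower, 10.5% against 5.51%. The methods' t-test was run here on channel values after normalization, without pairing the pools of an array. The methods do not say whether it was paired. It called none of the members and 1 of all 127 at its stated threshold of p under 0.01. The unadjusted count was 0 of 19 members without array 1, 2 without array 2 and 1 without array 3, against 3.15%, 14.2% and 9.45% of all tested miRNAs.

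miR-1759 had the largest ratio of the members in size, with a lower signal in the dwarf pool of every array. Its ratios on arrays 1, 2 and 3 were -1.44, -1.53 and -0.42, averaging -1.13 (SE 0.28, limma unadjusted p 0.0175, adjusted p 0.324). The normalised signal was 498 ± 159 in dwarf pools and 1111 ± 493 in normal pools (SD, n = 3 each), which by the ratio is a 2.19-fold higher level in normal pools. Over 17 alternatives the mean ratio ran between -1.61 and -0.93, with adjusted p between 0.135 and 0.993. The sign held under all 17, but not all of them could have turned it. Changing the filter or the moderation, or comparing the channels separately, left the mean at -1.13. Leaving out an array could not turn the sign, because the ratios of all 3 arrays were negative. Where the background, the summary of spots, the normalization, a dye coefficient or the authors' table changed the ratio itself, the mean ran between -1.61 and -0.96.

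miR-1629 and miR-1579 had the next smallest p among members with a lower signal in dwarf pools. The ratios of miR-1629 were -1.19, -0.35 and -0.56, with a mean of -0.70 (SE 0.21, limma unadjusted p 0.0332, adjusted p 0.324). Those of miR-1579 were -1.50, -0.57 and -0.30, with a mean of -0.79 (SE 0.29, limma unadjusted p 0.0539, adjusted p 0.362). Array 1 gave the largest value in both, and without it the means were -0.46 and -0.44. miR-181b, which shares the stretch of 13 bases with miR-1629, had ratios of -0.77, -0.66 and -0.03, with a mean of -0.49 (SE 0.20, limma adjusted p 0.413). The study reports miR-181b as significantly lower in dwarf embryos of this age, by its own normalization and test.

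miR-1763 and miR-1576 had the smallest p among members with a higher signal in dwarf pools. The ratios of miR-1763 were 0.33, 0.54 and 0.41, with a mean of 0.42 (SE 0.12, limma unadjusted p 0.0285, adjusted p 0.324). Its normalised signal was 685 ± 147 in dwarf pools and 516 ± 146 in normal pools (SD, n = 3 each). miR-1576 had ratios of 0.18, 0.43 and 0.75, with a mean of 0.46 (SE 0.17, limma unadjusted p 0.0543, adjusted p 0.362). Both had one sign on 3 of 3 arrays, and without any normalization the ratio of miR-1763 was -0.08, on arrays whose tested miRNAs then had a median of -0.50.

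miR-1607 and miR-1777 were also above 0 in the mean after loess, and at -0.05 and -0.03 without normalization. miR-1607 had ratios of -0.10, 0.58 and 0.57, with a mean of 0.35 (SE 0.20, limma adjusted p 0.596). miR-1777, the brightest member, had 0.09, 0.07 and 0.82, with a mean of 0.33 (SE 0.21, limma adjusted p 0.669). Without array 1 the mean of miR-1607 was 0.57, and without array 3 that of miR-1777 was 0.08.

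Other bright members lay close to 0. miR-1584 had ratios of -0.49, 0.60 and -0.10, with a mean of 0.00 (SE 0.26, limma adjusted p 0.996). miR-1587, which shares 13 bases with it, had -0.52, 0.45 and -0.28, with a mean of -0.11 (SE 0.24, limma adjusted p 0.972). Both were above 0 on array 2 alone. miR-1451 had -0.10, -0.12 and -0.29, with a mean of -0.17 and a small spread (SE 0.12, limma adjusted p 0.732). The remaining 9 tested members had means between -0.49 and 0.11, with limma adjusted p between 0.732 and 0.989.

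**Figure D4:**
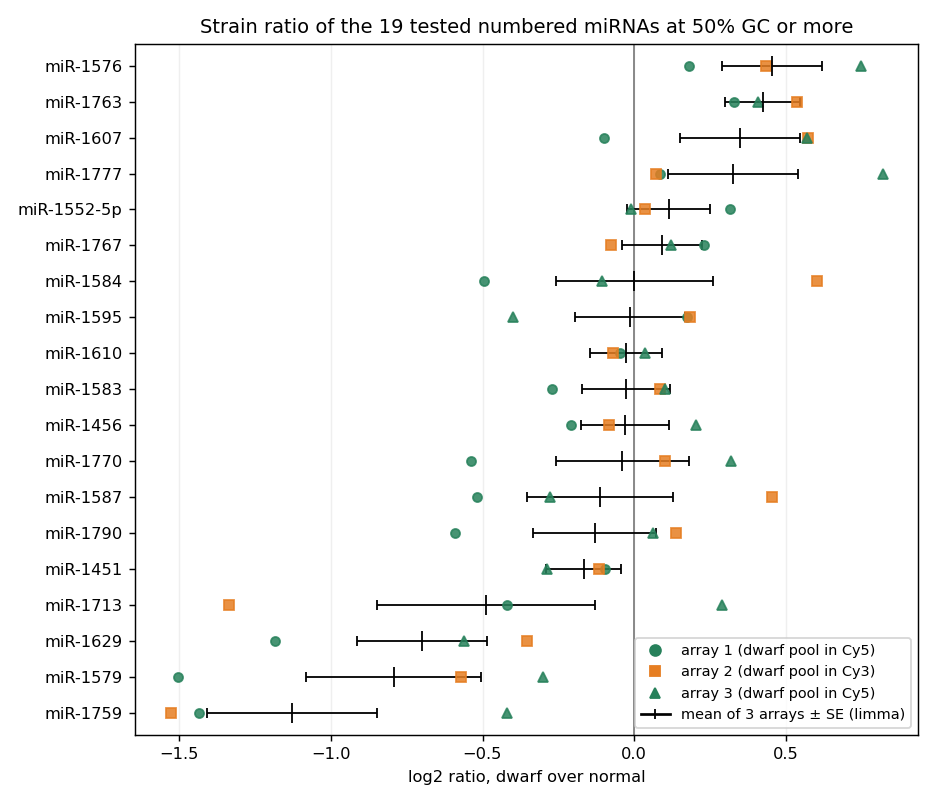
Log2 ratio of dwarf over normal (x axis) for the 19 tested members (y axis, ordered by mean ratio), with one symbol per array and the limma mean ± SE of 3 arrays in black. miR-1759, miR-1579 and miR-1629 lie to the left of 0 on all 3 arrays, and miR-1763 and miR-1576 to the right on all 3.

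The median ratio of the tested members was close to 0, at -0.03, against -0.06 in the 108 other tested miRNAs and -0.05 in all 127. By array the members' median was -0.21, 0.07 and 0.06, and that of the others -0.01, 0.00 and -0.15. The ratio was above 0 in 7 of 19 members and in 40 of 108 others. All 3 arrays gave the same sign in 7 of 19 members, 36.8%, against 32.3% of all tested.

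The median SD of the ratio between arrays, which includes the differences between pools of embryos, was 0.39 in the members and 0.32 in the other tested miRNAs, whereas the median SD between spots of an array was 0.13 and 0.14. miR-1713 had the largest SD of the members, 0.81, with ratios of -0.42, -1.34 and 0.29.

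Among the tested members the ratio was higher at higher GC. Across the 19 the Spearman rho of mean ratio with GC was 0.564 and Pearson r 0.563, while across the 108 other tested miRNAs rho was -0.377 and r -0.261. On arrays 1, 2 and 3 the members' rho was 0.134, 0.684 and 0.738. Under 5 other processings, the authors' table among them, rho ran between 0.508 and 0.65 in the members and between -0.393 and -0.337 in the others. These are descriptions over probes that share arrays and dyes. By group, 11 tested members at 75% GC or more had a median ratio of -0.03, with 5 above 0, and the 8 below 75% GC had a median of -0.10, with 2 above 0. By array the medians were -0.27, 0.14 and 0.20 at 75% GC or more and -0.07, -0.10 and -0.15 below it, so the order was the other way on array 1.

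Relative to the other tested miRNAs, the dye ratio of the members had no common sign over the arrays. After loess the members' median of Cy5 over Cy3 minus that of the other tested miRNAs was -0.20, -0.07 and 0.22 by array, averaging -0.02 (SD 0.21, n = 3, two-sided exact sign-flip p = 1). Before loess the differences were -0.24, -0.07 and 0.09, with a mean of -0.08 (exact sign-flip p = 0.75). The members' own median before loess was -1.18, -0.94 and -1.42 by array. That of the others was -0.94, -0.86 and -1.51, so Cy3 was the brighter dye in both.

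Of the epithelial and blood cell markers, only the epithelial sums did not overlap between dwarf and normal pools. All these sums are of signals before normalization. Summed signals of 7 epithelial miRNAs were 28208 to 50581 in dwarf pools and 279 to 19574 in normal pools, with 1 of the 7 over 32 in all pools and miR-183 in none. The 2 red blood cell miRNAs summed to 1080 to 5421 in dwarf pools and 515 to 4172 in normal pools, with miR-144 over 32 in no pool. The 7 white blood cell miRNAs summed to 1806 to 2974 in dwarf pools and 324 to 5425 in normal pools, with miR-142-3p and miR-142-5p over it in none. The part of such cells in the members' ratios was not tested.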

How the data were processed

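The members, lists and comparisons were chosen with earlier results of these data known. The deposited scanner tables give, per channel, a linear intensity for every spot (its mean density) from which no background has been taken, and commas inside numbers were removed. The authors also deposited a table of log2 ratios per miRNA and array, made per the methods by background subtraction and LOWESS. Set against the scanner values it follows dwarf over normal (Pearson r 0.965, 0.860 and 0.912 on arrays 1, 2 and 3), although the sample titles write normal over dwarf. It was used as an alternative only. How it was centred is not stated, and its column medians were 0.04, 0.03 and -0.13. No column was without a sample (0).

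The 3968 spots of an array include 3252 miRNA spots, 6 per miRNA. Signals are means of 6 spots minus the median empty spot. Ratios used normexp with an offset of 50 on the foreground, as no background column was used, then loess within arrays (controls at weight 0) and the mean of spots, with array 2 reversed in sign. For dim miRNAs the offset brings ratios nearer to 0. limma 3.58.1 in R 4.3.3 (lmFit, eBayes) was used, with 2 residual degrees of freedom and 1.82 prior ones, and p-values were adjusted by Benjamini-Hochberg over 127 miRNAs. Normalised channel signals follow loess and Aquantile. The fit was tested on simulated data. Python 3.11.15 made the counts.

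Named members were those over 32 in all 6 pools, the 10 brightest of the others, those with the 3 smallest p in each direction or an unadjusted p under 0.05, and those nearest 50% GC. Others named were chosen after their values were seen, among them miR-1612, miR-1564, miR-1779, miR-1716 and the members at 75% GC or more. Alternatives covered the limit, the summary of spots, the background, the normalization, the filter, the model, the authors' table, the GC limit and each array left out. Counting only names without an arm or letter was added after the data had been seen.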

Additional observations from a re-analysis of the deposited data

How the results depend on the processing

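Precision was limited by 3 arrays and, for dim members, by signals close to the empty spots. The mean difference in members over the limit (dwarf minus normal, -2.67) turned to 2.33 at a limit of 16, to 0.33 at 3 SD of the empty spots and to 2.67 after loess and Aquantile. It ran between -5.5 and -1 when each array was left out. The differences in shares against both other sets kept their direction under every limit and GC limit tried, and with names of the plain form only. Leaving out an array could not turn them, because all 3 arrays gave the same sign. The count of members past an adjusted p of 0.05 was 0 under all 17 alternatives. Of all tested miRNAs 1.57% passed with median centring and 2.36% with a dye coefficient, and 0% under the rest. The unadjusted count, 3, was 1 after median centring, 0 without normalization, 6 with no filter (184 members then tested), 1 without moderation and 0 by the methods' t-test, against 6.3%, 2.36%, 5.72%, 4.72% and 2.36% of all tested miRNAs. It was between 0 and 2 with an array left out (0 without array 1, 1 without array 3). The median ratio of -0.03 became -0.26 with median centring and -0.50 without normalization, where all tested miRNAs had -0.26 and -0.50. Separate channels with array as a replicate block gave 3 unadjusted calls and 0 adjusted, and 2 and 0 without the block. The fit with the block repeats the main fit, with the same ratios and p, so among the 17 alternatives it is no separate check. Without normalization the ratios of miR-1763, miR-1607 and miR-1777 turned to -0.078, -0.049 and -0.026. That of miR-1584 turned to -0.049 with plain subtraction, -0.18 with median centring and -0.43 without normalization, and ran between -0.30 (without array 2) and 0.25 with an array left out. That of miR-1587 turned to 0.042 with loess on detected miRNAs and 0.029 with a dye coefficient, and ran between -0.40 and 0.089 (without array 1). The difference in Cy5 over Cy3 of -0.02 ran between -0.13 and 0.072 with an array left out, and was 0.010 without array 2. The causes were not tested.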
